A study of Homo sapiens with 12 samples.

Results

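The receptors, SMAD proteins and SMURF ubiquitin ligases of the transforming growth factor beta (TGF-beta) pathway, the complex on which the ubiquitin protease USP15 is known to act, were examined in 2 human leukemia cell lines. The 10 genes were taken by symbol from the count tables: the ligand TGFB1, the receptors TGFBR1, TGFBR2 and ACVR1B, the SMAD genes SMAD2, SMAD3, SMAD4 and SMAD7, and the ligases SMURF1 and SMURF2. All 10 were listed in both tables, among 31316 genes listed in either. KBM7 and K562 are lines from chronic myeloid leukemia in blast crisis, which carry the BCR-ABL1 fusion. Each was transfected with siRNAs against USP15 (siUSP15) or with control siRNAs (siCtrl), and total RNA was taken 72 h later. KBM7 was grown in IMDM and K562 in RPMI 1640. KBM7 gave 2 libraries for each siRNA and K562 gave 4.

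TGF-beta binds the type II receptor TGFBR2, which then activates the type I receptor TGFBR1. TGFBR1 phosphorylates SMAD2 and SMAD3, and these join SMAD4 and enter the nucleus. The inhibitory SMAD7, itself induced by the pathway, brings SMURF1 and SMURF2 to the receptor, where they attach ubiquitin and mark it for destruction, and USP15 removes this ubiquitin. In blood formation TGF-beta is best known for restraining the division of stem cells. Ubiquitin and protein levels are where USP15 is known to act. The present data are RNA levels only.

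Total counts were 23450607 to 29441118 per library in KBM7 and 23020401 to 43566543 in K562. The first principal component of K562 (64.4% of the variance) separated replicates 1 and 2 from replicates 3 and 4, called here the first and second set, and the K562 test holds a term for the set. Neither the labels nor the methods say that replicates were separate cultures, so p-values measure the spread between libraries. All 10 hematopoietic markers checked had a mean above 1 CPM in every group (CPM, a count scaled to the library total). Of 10 markers of other cell types, 6 were in both tables, with a summed level of 7.98 to 10.6 CPM over the KBM7 libraries and 89.1 to 105 CPM over those of K562, of which the epithelial gene EPCAM made up most (97.2 CPM on average in siCtrl). Of the 5 erythroid markers tested in KBM7, 5 were lower with siUSP15 (median log2 fold change -1.87), beside 15.8% of all genes. In K562 1 of 7 was higher and 1 lower, beside 6.88% and 8.9% of all genes. The erythroid marker with the highest level changed least in KBM7 (-0.20). It made up most of their summed level in KBM7 siCtrl, 828 of 921 to 926 CPM. Of the 10 hematopoietic markers, 1 was higher and 6 lower in KBM7 (median -0.319). In K562, 2 of them were higher and 3 lower. The part of these changes in the values below was not tested. In such bulk samples fewer cells of a kind and less RNA per cell cannot be told apart.

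USP15 itself was at 209.8 and 216 CPM in the KBM7 siCtrl libraries and at 113 and 114 CPM in the siUSP15 libraries. In K562 it was at 269, 275, 343 and 330.0 CPM with siCtrl and at 116, 134, 191 and 197 CPM with siUSP15. The knockdown thus left 53.4% of the control RNA in KBM7 and 52.4% in K562, with no overlap between groups. CPM in the comparisons of siRNAs are scaled by TMM, a correction for library composition, within each line.

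In KBM7, both type I receptors and SMAD4 fell with siUSP15, while TGFBR2 and SMAD7 rose. Of the 10 genes, 2 were called higher and 3 lower at an edgeR adjusted p under 0.05, beside 29% of the 14980 genes tested in this line (13.2% higher and 15.8% lower). The siUSP15 and siCtrl libraries did not overlap for 7 of the 10, beside 66.5% of all genes. With 2 libraries per group, therefore, neither count sets these genes apart from the rest. Their median log2 fold change was -0.00512, and that of all genes was 0.000671.

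ACVR1B, a type I receptor for activin and nodal that also signals through SMAD2 and SMAD3, lies on chromosome 12 of hg38, 51951667 to 51997078. Its level in KBM7 was 50.3 and 49.5 CPM with siCtrl and 39.3 and 39.8 CPM with siUSP15. Both siUSP15 libraries were low, with little spread in either group, and the log2 fold change was -0.34 (standard error 0.0553, edgeR adjusted p = 0.000865). TGFBR1, the type I receptor for TGF-beta itself (chromosome 9, 99104038 to 99154192), was at 192 and 198 CPM with siCtrl and at 172 and 163 CPM with siUSP15. Its log2 fold change was -0.22 (standard error 0.0456, edgeR adjusted p = 0.00369). TGFBR2, the type II receptor that binds the ligand (chromosome 3, 30606502 to 30694142), moved the other way. It was at 75.5 and 77.2 CPM with siCtrl and at 92.0 and 92.0 CPM with siUSP15, a log2 fold change of 0.27 (standard error 0.0457, edgeR adjusted p = 0.00109). Counted per kb of transcript, TGFBR1 RNA exceeded TGFBR2 RNA 1.78-fold and 1.79-fold in the siCtrl libraries and 1.24-fold and 1.30-fold in the siUSP15 libraries of KBM7.

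SMAD4, the partner shared by the whole family (chromosome 18, 51028394 to 51085045), was at 74.5 and 76.2 CPM with siCtrl and at 65.8 and 65.3 CPM with siUSP15 in KBM7. The log2 fold change was -0.20 (standard error 0.0476, edgeR adjusted p = 0.00844), and the call was lost without siCtrl replicate 1 or siCtrl replicate 2, where the highest adjusted p was 0.0990. SMAD7, the inhibitor (chromosome 18, 48919853 to 48950711), had the largest change of the 10 in KBM7. It rose from 56 and 44 counts with siCtrl to 105 and 75 counts with siUSP15, or from 1.93 and 1.86 CPM to 3.68 and 3.17 CPM. The log2 fold change was 0.85 (standard error 0.183, edgeR adjusted p = 0.00467), and its size exceeded that of 94.8% of all genes tested. These are low counts, so the error of SMAD7 was the widest of the 10. It remained past the threshold in each of the 4 fits that left out a library, at 0.74 to 0.96.

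The receptor-activated SMAD genes did not pass in KBM7. SMAD2 was at 143 and 141 CPM with siCtrl and at 151 and 154 CPM with siUSP15 (log2 fold change 0.11, standard error 0.0433, edgeR adjusted p = 0.0801). SMAD3 was at 37.0 and 33.2 CPM with siCtrl and at 37.9 and 40.4 CPM with siUSP15 (log2 fold change 0.15, standard error 0.0695, edgeR adjusted p = 0.119). For both, the siUSP15 libraries lay above the siCtrl libraries. The gap was wide beside the spread for SMAD2 and narrow for SMAD3. TGFB1, the ligand, had siUSP15 libraries at 198 and 169.8 CPM, on either side of its siCtrl libraries at 192 and 197 CPM (log2 fold change -0.08, standard error 0.0621, edgeR adjusted p = 0.374). Without siUSP15 replicate 1, SMAD3 and TGFB1 were called as well, and 7 of the 10 passed.

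The ubiquitin ligases stayed within a narrow range in KBM7. SMURF1 (chromosome 7, 99027438 to 99144100) was at 39.4 and 38.1 CPM with siCtrl and at 36.9 and 38.9 CPM with siUSP15, and SMURF2 (chromosome 17, 64542295 to 64662068) at 28.9 and 28.4 CPM and at 28.8 and 29.4 CPM. The log2 fold changes were -0.03 (standard error 0.0607, edgeR adjusted p = 0.724) for SMURF1 and 0.02 (standard error 0.0648, edgeR adjusted p = 0.824) for SMURF2. Of the exon bases of SMURF1, 11.7% lie opposite exons of other genes, among them TRRAP. The share is 6.6% for TGFB1, 2.5% for SMURF2 and 1.8% for SMAD3. Whether reads were counted by strand is not given in the sources used here. SMAD4 shares 4.9% of its exon bases with another gene on the same strand.

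**Figure D1:**
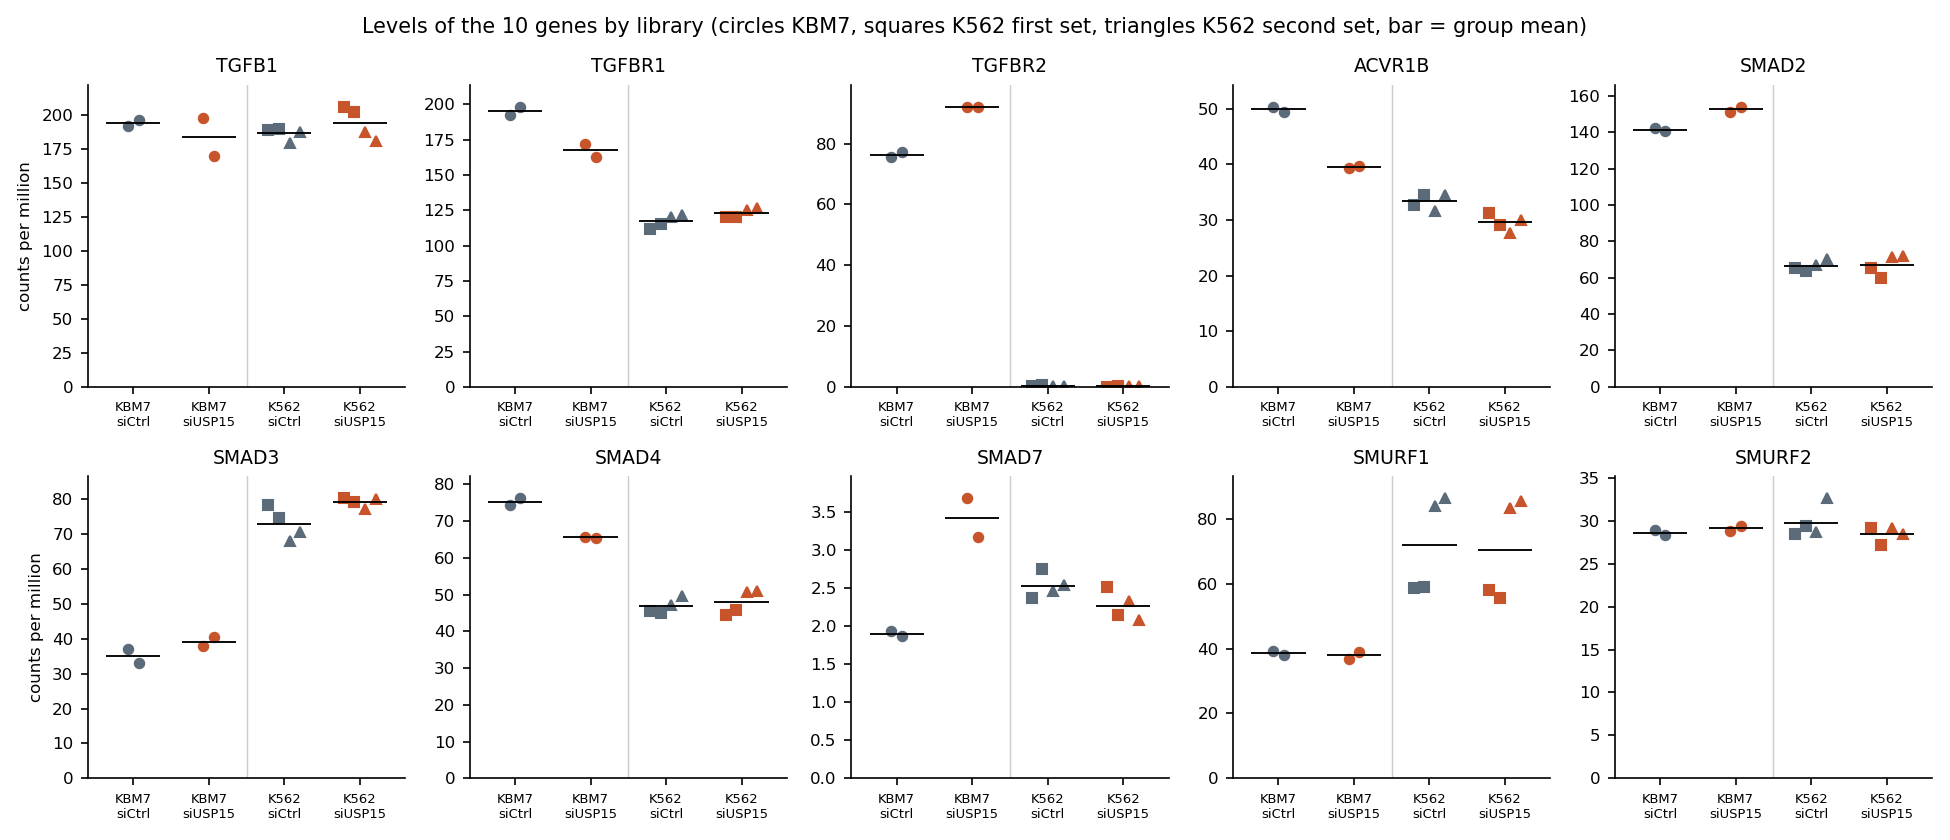
CPM of the 10 genes in each library, scaled within each line, from 0 on a linear axis. Points are libraries (circles KBM7, squares the first and triangles the second K562 set), bars are group means. In KBM7, TGFBR1, SMAD4 and ACVR1B sit lower and TGFBR2 and SMAD7 higher with siUSP15, and TGFBR2 is near 0 in all K562 libraries.

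In K562, ACVR1B alone was called among the 9 genes that passed the filter on low counts, beside 15.8% of the 13731 genes tested with the term for the library set (6.88% higher and 8.9% lower). It was also the only one of the 9 whose groups did not overlap, beside 8.37% of all genes. At 1 of 9, neither count sets these genes apart from the rest. The levels of ACVR1B were 32.7, 34.6, 31.6 and 34.5 CPM with siCtrl and 31.3, 29.1, 27.7 and 30.1 CPM with siUSP15. The highest siUSP15 library was thus under the lowest siCtrl library. An exact permutation test, 2-sided, gave p = 0.0286 over free exchanges of the libraries and p = 0.0556 over exchanges within the sets, the smallest that each design allows. Both p follow from the lack of overlap and add nothing to it, and they are not adjusted for the number of genes. The log2 fold change was -0.18 (standard error 0.0511, edgeR adjusted p = 0.0384), and ACVR1B was at 89.9% of control in the first set and 87.5% in the second. The call was lost with DESeq2 (adjusted p = 0.0531), with no filter on low counts (adjusted p = 0.0737), and in the first and the second set alone (adjusted p = 0.0876 and 0.142). It was also lost with the replicate numbers as a block (adjusted p = 0.0699), with no term for the set (adjusted p = 0.371) and in 6 of 8 fits without 1 library, that is unless the library left out was siCtrl replicate 3 or siUSP15 replicate 4. Over these 8 fits the log2 fold change was -0.20 to -0.15 and the highest adjusted p was 0.139. The fit with no term for the set called 0 of all genes (lowest edgeR adjusted p = 0.183), with 1447 at an unadjusted p under 0.05.

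TGFBR2 did not pass the filter in K562. Its counts were 7, 11, 4 and 6 in the siCtrl libraries and 2, 6, 7 and 5 in the siUSP15 libraries. A response of this receptor to siUSP15 was therefore not measurable in K562. SMAD7 had 56 to 66 counts with siCtrl and 49 to 94 with siUSP15, so its depth in K562 was like that in KBM7. Its levels were 2.37, 2.75, 2.46 and 2.53 CPM with siCtrl and 2.51, 2.14, 2.32 and 2.08 CPM with siUSP15, and the groups overlapped. The log2 fold change was -0.17 (standard error 0.124, edgeR adjusted p = 0.381).

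TGFBR1 was at 112, 115, 120.3 and 121 CPM with siCtrl and at 120.0, 119.9, 125 and 127 CPM with siUSP15 in K562. Within each set both siUSP15 libraries lay above both siCtrl libraries, although the groups overlapped across the sets, and the log2 fold change was 0.07 (standard error 0.0307, edgeR adjusted p = 0.133). SMAD3 was at 78.4, 74.7, 68.0 and 70.7 CPM with siCtrl and at 80.3, 79.2, 77.1 and 80.1 CPM with siUSP15 (log2 fold change 0.12, standard error 0.0397, edgeR adjusted p = 0.0636). Within each set both siUSP15 libraries were again above both siCtrl libraries. For TGFBR1 and SMAD3, as for ACVR1B, the exact permutation test within the sets gave p = 0.0556, the smallest possible, and over free exchanges it gave p = 0.171 and p = 0.0571. The p within the sets follows from the order of the libraries there, and none of these p is adjusted. The other genes of the group moved by less. The log2 fold changes were 0.06 for TGFB1, 0.04 for SMAD4, 0.00470 for SMAD2, -0.03 for SMURF1 and -0.07 for SMURF2, with standard errors of 0.0349 to 0.0525 and edgeR adjusted p from 0.275 to 0.954. TGFB1 passed in a fit of the first set alone (log2 fold change 0.12, edgeR adjusted p = 0.0351).

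The 2 sets of K562 libraries differed in SMURF1 far more than the siRNAs did. SMURF1 was at 55.6 to 58.9 CPM in the 4 libraries of the first set and at 83.3 to 86.4 CPM in the 4 of the second. Its siCtrl level was 1.45-fold higher in the second set, whereas siUSP15 libraries were at 96.5% and 99.0% of control within the first and the second set. The libraries of the 2 sets did not overlap for TGFBR1, TGFB1, SMAD2 and SMAD4 either, over both siRNAs. Their siCtrl levels in the second set were 1.07, 0.969, 1.06 and 1.07 times those in the first. The share of all genes split in this way was not counted. Whether the sets are batches is not given in the sources used here. The response to siUSP15 differed between the sets in 0 of the 9 genes tested (edgeR adjusted p under 0.05), beside 13% of all genes (6.08% higher and 6.91% lower in the second set), with 0 of 9 also at an unadjusted p under 0.05 and 0 of 9 by DESeq2 and by limma-voom. USP15 itself fell less in the second set, to 57.7% of control against 45.9% in the first (difference of log2 fold changes 0.32, standard error 0.0753, edgeR adjusted p = 0.0128). That call was lost without siCtrl replicate 1, 2 or 4 (adjusted p up to 0.0615), and the difference was 0.22 to 0.44 over the 8 fits without 1 library.

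**Figure D2:**
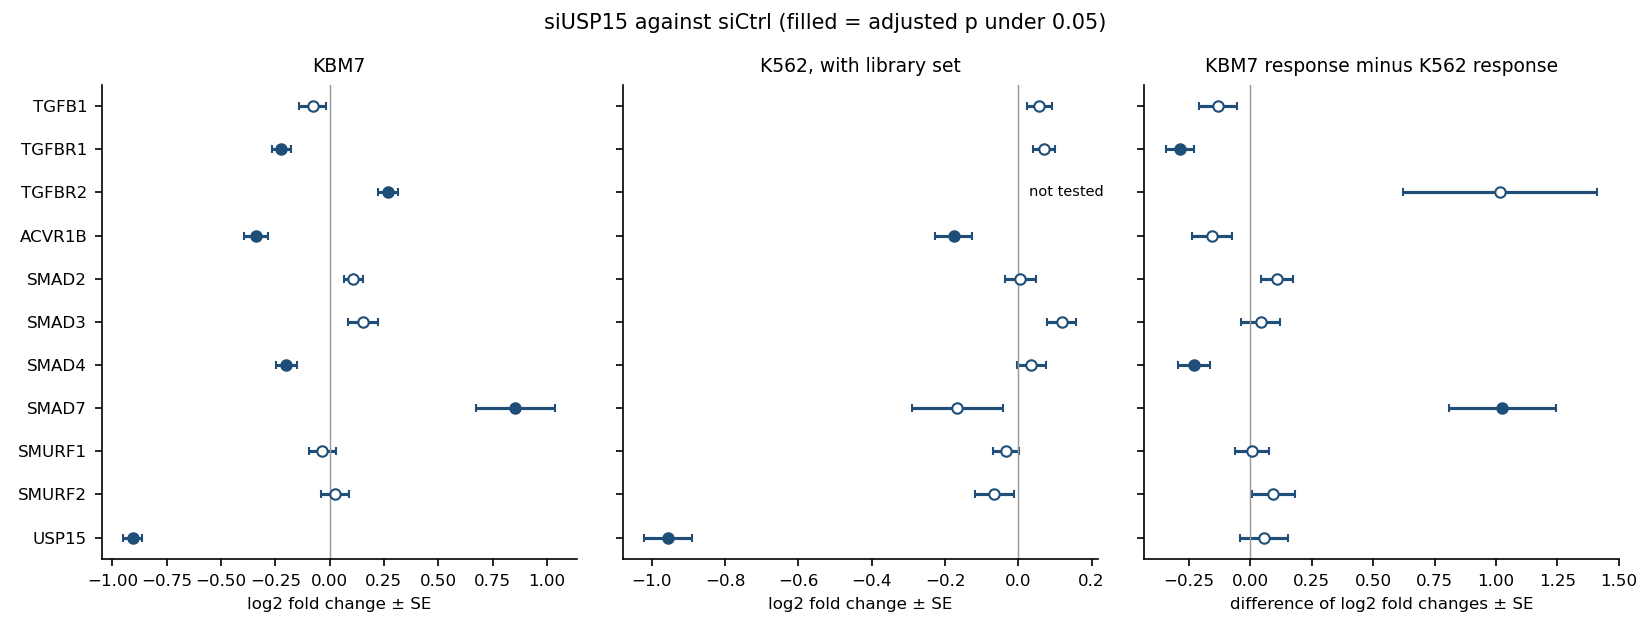
Log2 fold change of siUSP15 against siCtrl for the 10 genes and USP15 in KBM7 and in K562, and the difference of these fold changes between the lines, with standard errors from edgeR. Filled points passed an adjusted p under 0.05: in KBM7 TGFBR1, TGFBR2, ACVR1B, SMAD4 and SMAD7, in K562 ACVR1B, and between the lines TGFBR1, SMAD4 and SMAD7, besides USP15 in either line. The point of TGFBR2 in the right panel rests on a few counts in K562 and is not read.

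The responses of the 2 lines were then set against each other in a fit of all 12 libraries. Among the 9 genes that passed the filter in both lines, the response of 3 differed, beside 16% of the 15833 genes tested (7.94% higher and 8.03% lower in KBM7). SMAD7 differed by 1.03 on the log2 scale (standard error 0.218, edgeR adjusted p = 0.00390), higher with siUSP15 in KBM7 and with a value below 0 in K562. TGFBR1 differed by -0.29 (standard error 0.0584, edgeR adjusted p = 0.00283) and SMAD4 by -0.23 (standard error 0.0660, edgeR adjusted p = 0.0236). The call of SMAD4 was lost without any 1 of the 4 KBM7 libraries (adjusted p up to 0.0996) and with the replicate numbers as a block (adjusted p = 0.0690). It was lost as well with no filter on low counts (adjusted p = 0.0552). With no term for the set, SMAD7 alone was called (adjusted p = 0.0389). For ACVR1B, lower in both lines, the difference of -0.16 (standard error 0.0811, edgeR adjusted p = 0.210) was not past the threshold. TGFBR2 entered this fit only through KBM7, with 2 to 11 counts per library in K562, and no difference of responses is read for it. USP15 knockdown did not differ detectably between the lines (difference 0.05, standard error 0.0981, edgeR adjusted p = 0.756).

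Baseline levels were read from the siCtrl libraries, scaled by TMM over all 12 libraries. The lines also differ in medium and in the number that opens their library titles, whose meaning is not given in the sources used here. Line, medium and that number cannot be told apart, here or in the responses compared above. The widest difference was in TGFBR2. It had 2190 and 1824 counts in KBM7 and 7, 11, 4 and 6 in K562, or 71.8 ± 0.914 CPM (SD, n = 2) and 0.294 ± 0.131 CPM (SD, n = 4), about 242-fold apart in the fit. TGFBR2 entered this fit only through KBM7, so its value is a description. Per kb of transcript, its siCtrl level was above 64.9% of 12789 genes in KBM7 and above 9.6% in K562. The ratio of TGFBR1 to TGFBR2 counts per kb, with 0.5 added to each count, lay between 168 and 479 in the K562 siCtrl libraries, against 1.78 and 1.79 in those of KBM7.

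Of the other 9 genes, 8 differed between the lines, beside 83.7% of all genes (42.7% higher and 41% lower in KBM7), so a difference here is the rule. SMAD2 was 1.93-fold higher in KBM7 (log2 difference 0.95, standard error 0.0451, edgeR adjusted p = 5.85e-13), whereas SMAD3 was lower in KBM7 (log2 difference -1.19, standard error 0.0582, edgeR adjusted p = 9.50e-13). These receptor-activated SMAD genes thus lay on opposite sides. The ratio of SMAD2 to SMAD3 counts per kb was 0.719 to 0.790 in KBM7 siCtrl libraries and 0.155 to 0.186 in K562. TGFBR1, SMAD4 and ACVR1B were also higher in KBM7, by 0.60, 0.55 and 0.45 on the log2 scale (standard errors 0.0406, 0.0461 and 0.0564). SMURF1, SMAD7 and SMURF2 were lower there, at 0.498, 0.684 and 0.875 times the K562 level in the fit (standard errors of the log2 difference 0.0487, 0.163 and 0.0627). The call of SMURF2 was lost without KBM7 siCtrl replicate 2 (adjusted p = 0.0744) and with DESeq2 (adjusted p = 0.0872). TGFB1 was not past the threshold, with a log2 difference of -0.08 (standard error 0.0548, edgeR adjusted p = 0.185). USP15 was lower in KBM7, with a log2 difference of -0.64 (edgeR adjusted p = 1.01e-07).

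Levels of different genes can be compared only per length, here the MANE transcript. In KBM7 siCtrl libraries the ligand TGFB1 led with 65.8 CPM per kb, followed by TGFBR1 with 28.3, TGFBR2 with 15.9, ACVR1B with 10.4, SMAD4 with 8.08, SMURF1 with 6.43, SMAD3 with 5.11, SMURF2 with 4.32, SMAD2 with 3.85 and SMAD7 with 0.534 CPM per kb. No neighbours in this order overlapped in the 2 libraries. In K562 the order was TGFB1 with 69.5 CPM per kb, TGFBR1 with 18.7, SMURF1 with 13.2, SMAD3 with 11.7, ACVR1B with 7.61, SMAD4 with 5.52, SMURF2 with 4.94, SMAD2 with 1.99, SMAD7 with 0.782 and TGFBR2 with 0.0650 CPM per kb. Here the libraries of SMURF1 and SMAD3 overlapped, as did those of SMAD4 and SMURF2. The ligand and the type I receptor thus led in both lines, and the inhibitor SMAD7 was among the lowest. The order of the SMAD genes depends on the length chosen: over all annotated exons SMAD4 was at 3.62, SMAD2 at 3.66 and SMAD3 at 3.30 CPM per kb in KBM7, since the union of SMAD4 exons is 19606 bases and its MANE transcript 8772. SMAD2 has a MANE transcript of 34626 bases, most of it untranslated, and shorter isoforms would raise its level per length.

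**Figure D3:**
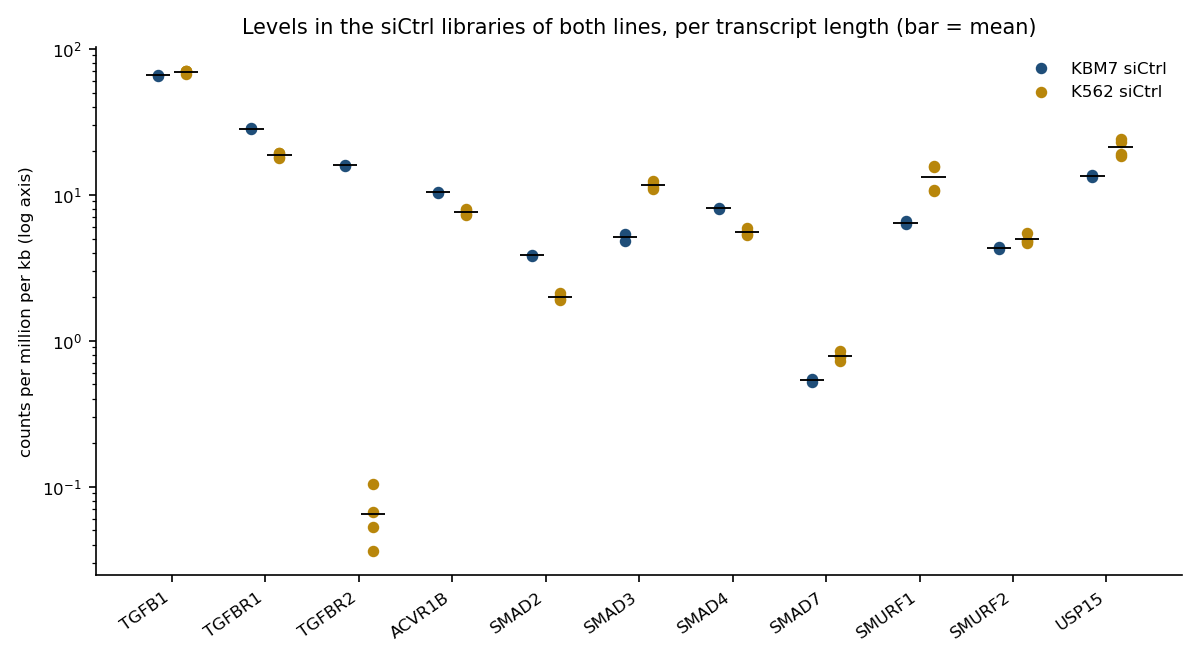
Levels of the 10 genes and USP15 in the siCtrl libraries of KBM7 (2) and K562 (4), in CPM per kb of MANE transcript on a log axis, scaled over all 12 libraries. Points are libraries and bars are means. TGFBR2 is at 15.9 in KBM7 and 0.0650 in K562, while TGFB1 is at 65.8 and 69.5.

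Ratios of 2 genes within a library do not depend on its scaling, and 9 pairs were compared in K562 with an exact permutation test within the sets, 2-sided. The smallest p this allows is 0.0556, so no pair could pass, and the lowest adjusted p over the 9 pairs was 0.1. Libraries exchanged freely gave 0.0857 as the lowest adjusted p. The ratio of TGFBR1 to ACVR1B had log2 values that rose with siUSP15 by a mean of 0.24 in K562, 0.24 in the first set and 0.25 in the second, with no overlap of the groups (p = 0.0556 in the exact permutation test within the sets). In KBM7 this ratio was 2.67 and 2.79 with siCtrl and 2.86 and 3.05 with siUSP15. The ratio of SMAD7 to SMAD4, an inhibitor and a mediator of the pathway, was 0.0649 and 0.0686 with siCtrl and 0.128 and 0.147 with siUSP15 in KBM7, and 0.135 to 0.162 and 0.108 to 0.149 in K562. The siCtrl libraries of KBM7 were thus the lowest for this ratio, and with siUSP15 they came within the range of K562. The ratio of SMURF2 to SMURF1 was 0.667 and 0.676 with siCtrl in KBM7 and 0.310 to 0.453 in K562, where it followed the library sets. In K562 the ratio of SMAD2 to SMAD3 followed the sets as well. Over both siRNAs it was 0.1411 to 0.1596 in the first set and 0.1675 to 0.1861 in the second.

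**Figure D4:**
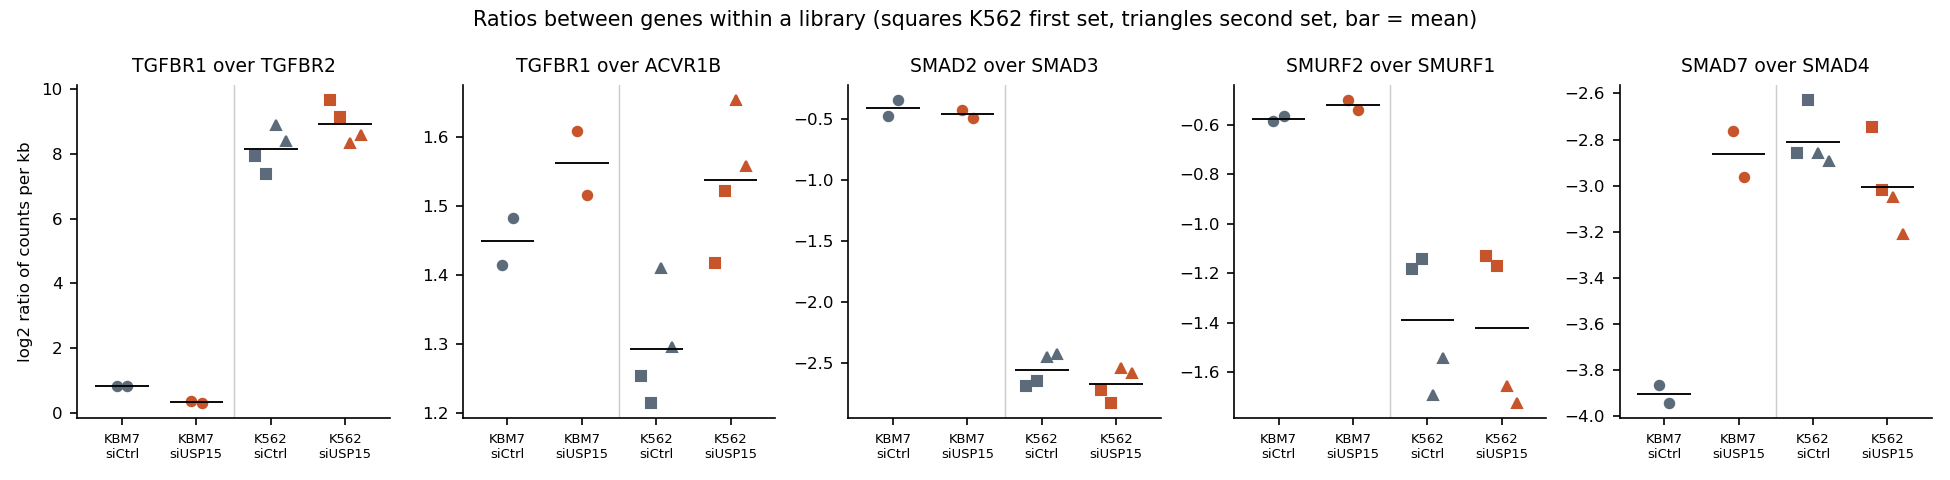
Log2 ratio of counts per kb of 5 pairs of genes in each library of the 4 groups, with bars at group means and separate axes for each pair. Squares are the first and triangles the second K562 set. In KBM7 the ratio of TGFBR1 to TGFBR2 is lower and that of SMAD7 to SMAD4 higher with siUSP15. In K562 the ratios of SMURF2 to SMURF1 and of SMAD2 to SMAD3 separate the sets.

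Other receptors of the family were also transcribed. In K562 siCtrl libraries the activin receptor ACVR2B was at 73.1 ± 3.43 CPM (SD, n = 4), the bone morphogenetic protein receptor BMPR2 at 16.9 ± 1.65 CPM, the anti-Müllerian hormone receptor AMHR2 at 20.9 ± 5.09 CPM and ACVR2A at 3.15 ± 0.325 CPM, beside 0.294 CPM of TGFBR2. Of the co-receptors, TGFBR3, which presents TGF-beta to TGFBR2, was at 78.0 ± 4.51 CPM in K562 and at 4.15 ± 0.196 CPM (SD, n = 2) in KBM7. ENG, an endothelial co-receptor, had the opposite pattern, at 0.832 ± 0.636 CPM in K562 and 169 ± 1.76 CPM in KBM7. ENG and TGFBR2 were thus low in the same line, and TGFBR3 in the other. These levels are descriptions on the scale of all 12 libraries. Of these other receptors, BMPR2, ACVR2A and TGFBR3 are named for their role and not by the rule for named genes, and were chosen after their values were seen.

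**Figure D5:**
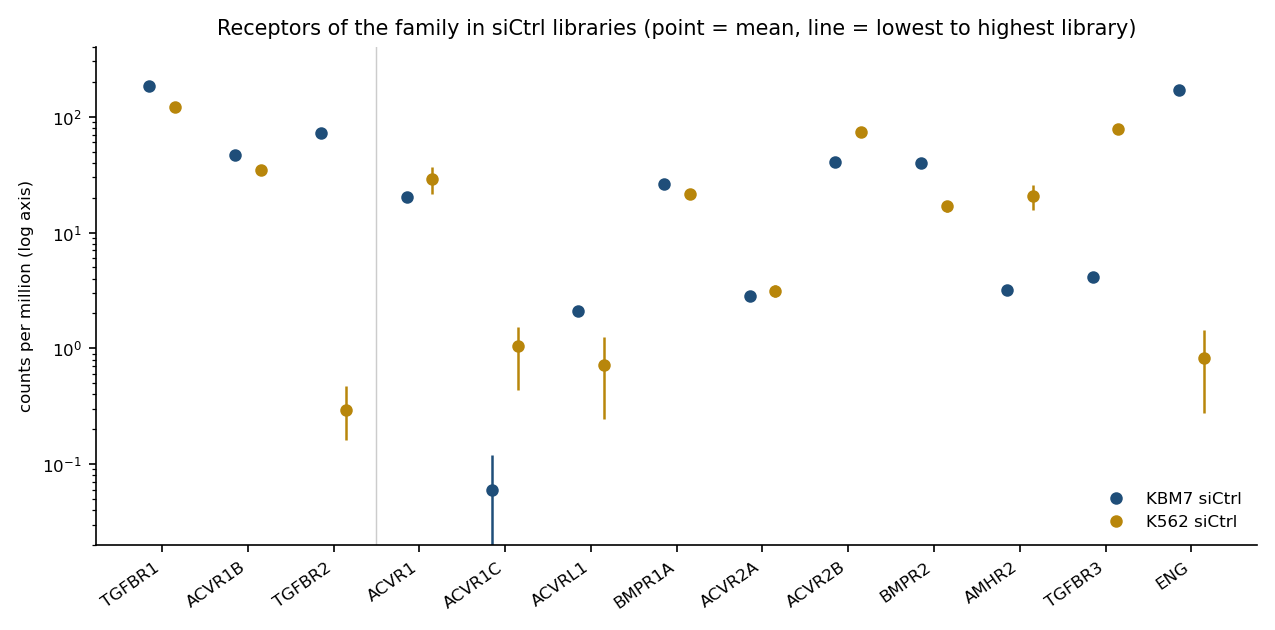
Levels of the 3 receptor genes of the group (left of the line) and of 10 other receptors of the family in siCtrl libraries, in CPM on a log axis, scaled over all 12 libraries. Points are means and lines run from the lowest to the highest library, to the lower edge where a library was at 0 (ACVR1C in KBM7). TGFBR2 and ENG are high in KBM7 and low in K562, and TGFBR3 is the reverse.

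With siUSP15, other genes of the pathway moved in both directions. The KBM7 counts that follow stand beside 13.2% of all genes tested called higher and 15.8% called lower, and nothing is read from them as particular to a list. Some target genes also stand in another list, so the counts of the lists, in either line, are not independent. In KBM7, 5 of 10 ligands tested changed, 2 higher and 3 lower (median log2 fold change -0.00967). The lowest p were those of GDF3, with a log2 fold change of -1.82 (edgeR adjusted p = 1.51e-06), and of GDF15, a ligand induced by stress, with -2.40 (edgeR adjusted p = 2.16e-06). Of 14 genes of ligand activation or antagonism, 2 rose and 4 fell (median 0.0152, lowest -0.876). Those with the lowest p were the integrin subunit ITGAV, with -0.49, and the protease FURIN, which cleaves the TGF-beta precursor, with -0.34. Of 9 other receptors, 1 rose and 3 fell (median -0.102), led by AMHR2 with -2.64 and ACVR2B with -0.54.

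Of 12 other SMAD proteins and anchors tested in KBM7, 0 rose and 6 fell (median -0.129), led by the phosphatase subunit PPP1R15A at -0.33 and TGFBRAP1 at -0.27. Of 20 other ubiquitin enzymes of the pathway, 0 rose and 6 fell (median -0.0305). The lowest p there were those of SKP2, a ligase subunit of the cell cycle, at -0.57 and of NEDD4L, a ligase for SMAD2 and SMAD3, at -0.32, a call that was lost without either siCtrl library and with DESeq2. Of 20 nuclear partners of SMAD proteins, 1 rose and 8 fell (median -0.0297), among them RUNX1 at -0.45 and E2F5 at -0.48. Of 18 target genes, 1 rose and 5 fell (median -0.0708). The targets with the lowest p were both inhibitors of cyclin-dependent kinases and moved apart, CDKN2B at -1.15 (edgeR adjusted p = 3.05e-06) and CDKN1A at 0.50 (edgeR adjusted p = 4.01e-05). GDF3 and CDKN2B have no row in the K562 table.

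In K562, with the term for the set, the counts stand beside 6.88% of all genes called higher and 8.9% called lower. Of 6 ligands 1 fell, GDF15 at -0.49 (edgeR adjusted p = 0.00934). Of 12 genes of ligand activation or antagonism 1 rose, THBS1, which can activate latent TGF-beta and is a target as well, at 0.74 (edgeR adjusted p = 0.00190). Of 10 other receptors 3 fell, among them ACVR1 at -0.26 (edgeR adjusted p = 0.0112) and ENG at -1.26 (edgeR adjusted p = 0.0245), which had 1 to 33 counts per library. Of 10 SMAD proteins and anchors 1 rose, HGS at 0.14, and 1 fell, PPP1R15A at -0.13. Of 20 ubiquitin enzymes 2 rose and 1 fell, with RNF111, a ligase that removes SMAD7, at 0.20 and SKP2 at 0.22. Of 19 nuclear partners 5 rose and 1 fell (median 0.117), among them ZEB2 at 0.25 and the coactivator CREBBP at 0.30. Of 19 targets 3 rose and 4 fell, with JUN at -0.24. Each of these K562 calls was lost with no term for the set, and those of ENG, HGS and PPP1R15A also with the replicate block. When a library was left out, the call of SKP2 was lost without siCtrl replicate 2, and that of ENG without replicate 1 or 2 of either siRNA. The call of HGS was lost without replicate 1, 2 or 3 of either siRNA, and that of PPP1R15A unless siUSP15 replicate 2 or siCtrl replicate 3 was the one left out. SKP2 was lower with siUSP15 in KBM7 and higher in K562.

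SMAD7 is a direct target of SMAD3 and SMAD4, which bind the palindrome GTCTAGAC. This motif, searched on both strands, was present in 0 of the 26 RefSeq promoter windows (GRCh38.p14) of the 10 genes, from 250 bases before to 50 after a transcription start, and in 71 of 35116 windows of all genes (0.202%). Sequence outside these windows was not searched. With so rare a motif, nothing follows about binding from its absence in 26 windows.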

How the data were processed

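RNA of KBM7 and K562 with siCtrl or siUSP15 was read from 12 libraries, 72 h after transfection. The authors deposited raw counts per gene, 1 table per line, made with TopHat2 2.1.0 on hg38 and HTSeq per the labels. The paper names Itreecount and DEGseq instead. The log2 CPM and the authors' fold changes and p-values were not used. The 10 genes, the gene lists and the pairs were chosen with earlier results of these data known. So was the set term, since the K562 table is named as batch corrected and the batches are not given in the sources used here.

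After filterByExpr and TMM scaling, edgeR 4.0.16 (R 4.3.3) gave quasi-likelihood tests, 2-sided, with Benjamini-Hochberg adjustment over all genes tested. The tables were joined by gene ID for comparisons between lines. Ratios have 0.5 added to each count. Lengths come from GENCODE 44 (GRCh38). Figures were drawn with matplotlib 3.10.9. Fits were tested on simulated counts. Alternatives were RLE factors, no filter, DESeq2 1.42.0, limma-voom 3.58.1, an adjusted p under 0.01, each library left out, replicate numbers as a block, no set term, each set alone and 1 fit of all libraries.

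To see whether replicate numbers mark pairs, deviations of log2 CPM from the group mean were correlated between same-numbered siCtrl and siUSP15 libraries. In K562 these deviations correlated at 0.55 to 0.695, in 4 pairs, which the library sets give. Within the sets, the differences between the 2 libraries of each siRNA correlated at only 0.00697 and 0.0865. In KBM7 the correlation of the deviations was 0.000978. No library was a copy of another. Beyond the 10 genes and USP15, at most 2 called genes with the lowest p were named per list and line.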

Additional observations from a re-analysis of the deposited data

Results flagged for a closer look

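The response to siUSP15 differed between the lines, by a test of the difference itself, in TGFBR1 (-0.29 on the log2 scale, KBM7 minus K562), in SMAD4 (-0.23) and in SMAD7 (1.03). In K562 the response of USP15 itself differed between the second and the first library set by 0.32 on the log2 scale, a call that was lost without siCtrl replicate 1, 2 or 4. Among 22 groups of 4 K562 libraries, for the 10 genes and USP15, 0 had a library that stood apart by Dixon's test. Each group joined 2 libraries of the first and 2 of the second set. Where the sets lay apart, the test could hardly flag a library, so this 0 says little. Among 4 like libraries, chance would flag about 1 in 20 groups.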

How the results depend on the processing

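The number of the 10 genes called in KBM7 was 5 in the reported fit and 4 to 7 when a library was left out, and the same 5 genes were called with RLE factors, no filter, DESeq2, limma-voom, an adjusted p under 0.01, the replicate block and 1 fit of all libraries. In K562 the number was 1 and became 0 with no filter, with DESeq2 (2 at an unadjusted p under 0.05), at a threshold of 0.01, with the replicate block in place of the set, with no set term and with the second set alone, and 0 to 1 when a library was left out. The first set alone called 1, but TGFB1 in place of ACVR1B. The difference between the lines was called for 3 genes, for 1 with no set term, and for 2 (SMAD7 and TGFBR1) with no filter, at an adjusted p under 0.01 and with the replicate block. SMAD7 and TGFBR1 passed in each of the 12 fits without 1 library. At baseline, TGFBR2 aside, SMURF2 was the one call lost, as given above. Between the sets the number was 0 in every alternative run. The ratios could not pass by design, so their count says nothing about stability. With the replicate block no other call among the 10 genes changed than those of ACVR1B in K562 and of SMAD4 between the lines.

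Counts over all genes moved more. In KBM7, 4345 genes became 2556 with DESeq2, 2481 at an adjusted p under 0.01 and 2214 to 5129 without 1 library. In K562, 2167 became 1022 with the replicate block, 0 with no set term, 4775 and 277 in the first and the second set alone, 518 at an adjusted p under 0.01 and 555 to 2639 without 1 library. Between the lines, 2529 became 268 with no set term and 1188 at an adjusted p under 0.01, and 1326 to 2786 without 1 library. Between the sets, 1784 became 1099 with DESeq2, 521 at an adjusted p under 0.01 and 435 to 2774 without 1 library. The depth limits SMAD7 and, in K562, TGFBR2. Where 1 library was left in a KBM7 group, its spread was taken from the other group. The causes were not tested. A result past the threshold neither before nor after counts as unchanged whatever its sign.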
